A study of Mus musculus with 21 samples.

Results

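8 of the 41128 genes counted in these libraries are described here, chosen by name because they are used as marks of the choroid plexus and of the ependyma: Ttr, Kl, Enpp2, Folr1, Clic6, Cldn2, Otx2 and Foxj1. All 8 were found in the table of normalized read counts. The study injected adeno-associated virus, a non-replicating carrier of a gene, into the mouse striatum and sequenced striatal RNA 3 weeks later. The libraries form 2 sets that were scaled apart and are read apart. Set A holds 3 libraries labelled WT, 3 from mice given a virus named Cas9, the nuclease used in genome editing, and 3 from mice given a virus named GCas9. Set B holds 4 libraries from mice given a virus carrying GFP, a fluorescent protein, 4 given Cas9 virus and 4 given GCas9 virus. The labels do not spell out GCas9; the study's Cas9 of shortened half-life carries a piece of Geminin, a protein that cells degrade during part of the cell cycle. All mice are labelled wild type, with no engineered allele, and their age is given both as 3 weeks and as 3 months. The promoter of the viruses is not given in the sources used here. The labels do not say whether WT mice were injected, so WT is used as a label only. Nothing in the labels ties a library to a named animal, so the p-values measure the spread between these libraries.

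The choroid plexus is a folded tissue hanging in the brain's ventricles, whose epithelium secretes cerebrospinal fluid and carries hormones, vitamins and ions between blood and fluid. The ependyma is the sheet of cells, most of them with beating cilia, that lines the ventricles. The lateral ventricle borders the striatum, so both tissues lie next to the injected region. Ttr, transthyretin, is the thyroid hormone and retinol carrier that the choroid plexus secretes. Foxj1 is the transcription factor that switches on the genes of motile cilia, and it is made in ependymal cells and to a lesser degree in the choroid plexus.

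The sequences just before the starts of 3 members are shown because these genes, as given below, varied together with Ttr in set A. RefSeq promoter windows on GRCm38.p6 matched Kl, Otx2 and Cldn2, which is 3 of the 8 members. Each sequence is the 250 bases before a start, read 5′ to 3′ on the gene's strand, at chr5:150952357-150952606 (plus strand) for Kl, chr14:48667645-48667894 (minus strand) for Otx2 and chrX:139800558-139800807 (plus strand) for Cldn2. Capitals mark GTTGCC.
Kl: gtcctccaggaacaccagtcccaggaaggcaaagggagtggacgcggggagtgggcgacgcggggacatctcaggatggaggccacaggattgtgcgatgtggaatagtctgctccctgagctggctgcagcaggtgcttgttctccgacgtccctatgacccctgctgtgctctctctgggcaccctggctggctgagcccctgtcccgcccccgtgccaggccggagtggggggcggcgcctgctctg
Otx2: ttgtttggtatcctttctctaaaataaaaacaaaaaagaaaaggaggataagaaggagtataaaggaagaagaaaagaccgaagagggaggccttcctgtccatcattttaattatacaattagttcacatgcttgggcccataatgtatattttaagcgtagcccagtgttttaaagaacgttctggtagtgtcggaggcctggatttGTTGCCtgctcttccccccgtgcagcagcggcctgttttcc
Cldn2: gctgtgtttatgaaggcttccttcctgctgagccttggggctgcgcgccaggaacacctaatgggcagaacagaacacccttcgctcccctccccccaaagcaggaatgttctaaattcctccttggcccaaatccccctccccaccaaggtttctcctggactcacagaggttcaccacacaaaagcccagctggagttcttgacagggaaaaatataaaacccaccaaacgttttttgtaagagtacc
3 short motifs were looked for on both strands of all 32851 promoter windows of 300 bases: TAATCC, which proteins of the Otx type bind, TGTTTAC, bound by forkhead proteins, and GTTGCC, a part of the X-box that RFX proteins bind at cilia genes. The motif hits in the 250 bases before member starts did not overlap one another. TAATCC lay in 7.06% of all windows and in 1 of the 6 member windows, which was one of the 4 windows of Otx2 itself. TGTTTAC lay in 3.65% of all windows and in none of the member windows. GTTGCC lay in 12.5% of all windows and in 2 member windows, both of Otx2, and in the printed one it began 41 bases before the start. These 2 windows overlap, and that site lies in both. The windows of Kl and Cldn2 held none of the 3 motifs. GC content of the printed stretches was 66.8% for Kl, 42% for Otx2 and 52% for Cldn2, with 13, 6 and 4 CpG pairs.

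The libraries of set A held 20.34 to 28.05 M (mega) reads on genes and those of set B 6.092 to 11.07 M. A value below is a normalized read count, the reads of a gene divided by the authors' size factor for the library, and is compared within a set. The striatal origin was checked on 12 genes of striatal medium spiny neurons, with no gene of the list at 0 reads. Their values summed to 241641 to 305812 in set A, while set B had 100244 to 125966. The lowest sum of set A was in Cas9 replicate 1, where 12 of 12 genes lay below all WT libraries, against 25.7% of all genes. In GCas9 replicates 1 and 3 of set A 11 of 12 did, against 20.1% and 24.8%. It was 4, 1 and 2 of 12 in Cas9 replicates 2 and 3 and GCas9 replicate 2 there (19.1%, 23.2% and 19%). In Cas9 replicate 1 of set B 2 of 12 lay below all GFP libraries, against 15.7%. The cause was not tested. Replicate 1 of the Cas9 group stands apart from its set for the choroid plexus genes in both sets. In set A it was the highest of 9 libraries for 8 of 8 members, against 18.2% of all 25138 genes with a read, and in set B the highest of 12 for 7 of 8, against 9.5% of 26029 genes. The main group results below are therefore also given without that library. The libraries are of bulk tissue, in which fewer cells of a type and less RNA per cell cannot be told apart.

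**Figure D1:**
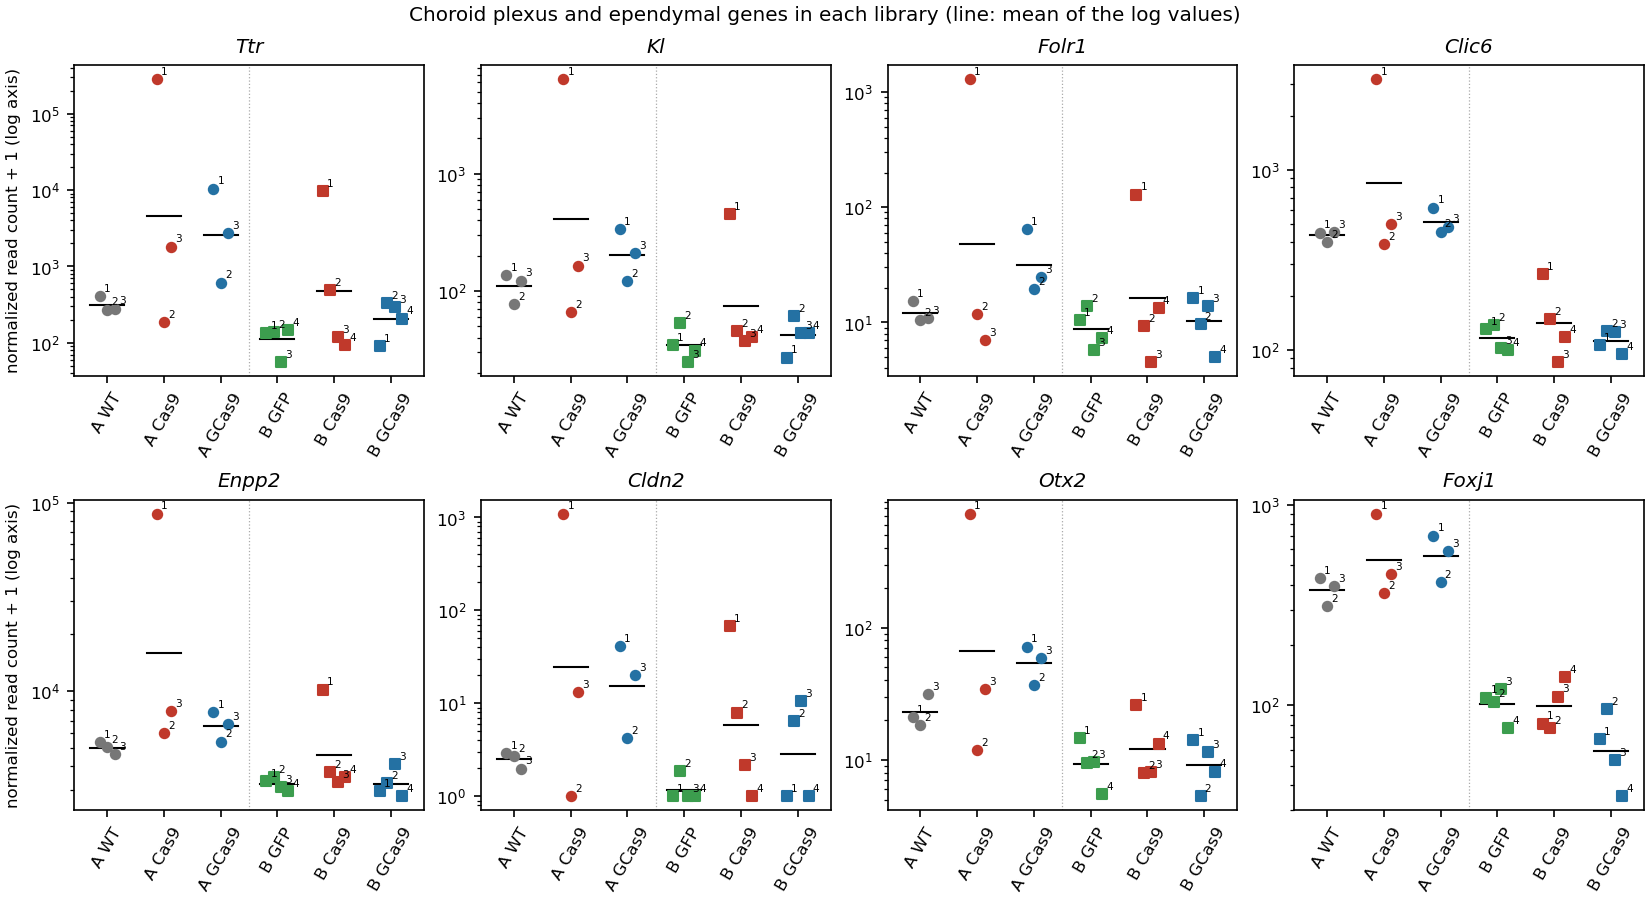
Normalized read count plus 1 on a log axis for each of the 8 genes in all 21 libraries, with the replicate number beside each point, circles for set A, squares for set B and a line at the mean of the log values of each group. Cas9 replicate 1 is the top point of its set in every panel except Foxj1 in set B, where Ttr reached 280177 in set A and 9771 in set B.

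Ttr lies at 18:20665280-20674321 on GRCm38 and encodes the main secreted protein of the choroid plexus. In set A its value was 413, 272 and 281 in the WT libraries, 280177, 188 and 1817 in the Cas9 libraries and 10462, 616 and 2711 in the GCas9 libraries. In set B it was 135, 139, 55.3 and 147 with GFP, 9771, 495, 117 and 92.1 with Cas9 and 89.1, 334, 295 and 207 with GCas9. The Cas9 group of set A thus held both the highest and the lowest Ttr library of the set, while all 3 GCas9 libraries lay above all 3 WT libraries. Transthyretin messages were 1.19% of the reads of Cas9 replicate 1 in set A, where Ttr ranked 3 among all genes by normalized count, against rank 8349 to 9606 in the WT libraries. In Cas9 replicate 1 of set B its rank was 66, and in GCas9 replicate 1 of set A it was 267.

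Enpp2, at 15:54838901-54952892, encodes autotaxin, the secreted enzyme that makes lysophosphatidic acid. It is made in the choroid plexus and also in oligodendrocytes, so the striatum has a level of its own. In set A its value was 5381, 5060 and 4652 in WT, 87320, 6011 and 7886 with Cas9 and 7755, 5422 and 6729 with GCas9. In set B it was 3330, 3509, 3104 and 2956 with GFP, 10209, 3747, 3320 and 3530 with Cas9 and 2948, 3275, 4130 and 2781 with GCas9. In set A all 6 libraries labelled Cas9 or GCas9 lay above all WT libraries. Cas9 replicate 1 held 17.3 times the WT median in set A and 3.17 times the GFP median in set B. Outside those libraries Enpp2 was highest in Cas9 replicate 3 of set A and GCas9 replicate 3 of set B. In these libraries, 12 of 12 and 11 of 12 genes of a list of mature oligodendrocyte markers were above all control libraries of the set, against 29% and 19.2% of all genes. The list summed to 319349 in Cas9 replicate 3 of set A, against 201244 to 242852 in WT, and to 145498 in GCas9 replicate 3 of set B, against 108174 to 128987 with GFP. None of its genes was at 0 reads in any library, and the part of oligodendrocyte RNA in the Enpp2 values was not tested.

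Kl, at 5:150952607-150993817, encodes Klotho, a membrane protein that acts as a co-receptor for the hormone FGF23 and is also shed into the cerebrospinal fluid. Its value in set A was 137, 76.7 and 122 in WT, 6361, 65.1 and 164 with Cas9 and 338, 120 and 208 with GCas9. Set B gave 33.7, 52.2, 23.8 and 30.0 with GFP, 451, 44.5, 36.6 and 39.3 with Cas9 and 26.1, 60.3, 42.5 and 43.0 with GCas9. Cas9 replicate 1 stood 52.3 times over the WT median in set A and 14.1 times over the GFP median in set B. The other 3 Cas9 libraries of set B lay within the range of the GFP libraries.

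Folr1, at 7:101858331-101870788, encodes the folate receptor with which the choroid plexus moves folate into the fluid. Its value was 14.4, 9.48 and 9.89 in WT, 1284, 10.8 and 6.07 with Cas9 and 63.3, 18.4 and 23.8 with GCas9 in set A. The values in set B were 9.47, 12.8, 4.77 and 6.37 with GFP, 128, 8.34, 3.54 and 12.3 with Cas9 and 15.4, 8.62, 12.8 and 3.98 with GCas9. Apart from Cas9 replicate 1 the libraries of set B held 3 to 20 reads of Folr1, so counting error weighs heavily in differences among those libraries.

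Clic6, at 16:92485736-92541243, encodes a protein of the intracellular chloride channel family. It had a value of 449, 398 and 451 in WT, 3177, 386 and 498 with Cas9 and 617, 454 and 484 with GCas9 in set A. Set B had 130, 137, 102 and 99.2 with GFP, 262, 147, 85.0 and 117 with Cas9 and 106, 127, 124 and 94.0 with GCas9. Of the choroid plexus members it stood out least in the high library of both sets, at 7.08 times the WT median and 2.25 times the GFP median.

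Cldn2, at X:139800828-139811386, encodes claudin-2, a tight junction protein that forms channels for small cations in leaky epithelia. The WT libraries held 2, 2 and 1 reads, and the GFP libraries 1 read in all. With Cas9 in set A there were 1057, 0 and 12 reads (normalized counts of 1099, 0 and 12.1), and with GCas9 42, 3 and 17 (40.3, 3.24 and 19.2). In set B the Cas9 libraries held 59, 5, 1 and 0 reads and the GCas9 libraries 0, 5, 12 and 0. Reads of Cldn2 were thus nearly confined to the libraries with much Ttr: the 4 libraries of set A with over 1000 Ttr counts held 12 or more reads each, and the other 5 held 0 to 3. A library with no read allows a level of up to 3 reads, which was a normalized count of 2.30 to 3.68 in the set B libraries without a Cldn2 read, for counting error only.

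Otx2, at 14:48657677-48673819, encodes a homeodomain factor needed to form and keep the choroid plexus. Its value was 20.2, 17.2 and 30.7 in WT, 728, 10.8 and 33.4 with Cas9 and 71.0, 35.7 and 57.7 with GCas9 in set A, so that all GCas9 libraries lay above all WT libraries. In set B it was 13.7, 8.55, 8.58 and 4.55 with GFP, 24.8, 6.95, 7.08 and 12.3 with Cas9 and 13.1, 4.31, 10.4 and 7.17 with GCas9. A long non-coding RNA, Otx2os1, overlaps Otx2 on the opposite strand (14:48668708-48870683), and no strand setting of the count is given in the sources used here. Otx2os1 had 39 reads in Cas9 replicate 1 of set A and 0 to 5 in every other library.

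Foxj1, at 11:116330704-116335399, behaved apart from the other members in set B. In set A its value was 431, 311 and 393 in WT, 904, 364 and 449 with Cas9 and 702, 412 and 589 with GCas9. In set B it was 108, 103, 119 and 76.4 with GFP, 80.2, 76.4, 110 and 138 with Cas9 and 66.8, 94.8, 52.2 and 34.2 with GCas9. Cas9 replicate 1 was the highest library in set A, at 2.30 times the WT median, but lay below the GFP median in set B, at 0.757 times. In set B 3 of 4 GCas9 libraries lay below all 8 other libraries, and GCas9 replicate 4 was the lowest of all.

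Per kilobase of exon sequence, which allows genes to be set beside one another, Enpp2 had the highest level of the 8 genes in all 7 control libraries, with Ttr next and Foxj1 and Clic6 after it. In WT the level per kilobase was 805 to 931 for Enpp2, 230 to 348 for Ttr, 119 to 164 for Foxj1 and 102 to 115 for Clic6, and no pair of neighbours in this order overlapped. Kl was lower, at 8.22 to 14.7. Folr1 and Otx2 overlapped each other at 4.13 to 6.29 and 4.08 to 7.26, and Cldn2 was last at 0.297 to 0.579. With GFP in set B the order was the same at its top, with 512 to 607 for Enpp2 and 46.6 to 124 for Ttr, but Foxj1 (29.1 to 45.4) and Clic6 (25.3 to 35) overlapped, as did Kl (2.55 to 5.59) and Folr1 (2.07 to 5.58). Ttr overtook Enpp2 in 5 libraries: Cas9 replicates 1 and 3 and GCas9 replicates 1 and 3 of set A, and Cas9 replicate 1 of set B. In Cas9 replicate 1 of set A it reached 236237 per kilobase, against 15110 for Enpp2.

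The members varied with Ttr from library to library in set A, and fewer did in set B. Pearson's r and Spearman's rho with Ttr, on the log2(value + 1) scale, were computed for 7 members in each set, which gave 14 relations, with a permutation p (exact in set A, two-sided) adjusted over them. Over the 9 libraries of set A, r was 0.91 to 0.99 and rho 0.70 to 0.98. The adjusted permutation p for r was at most 0.0064, and that for rho at most 0.067, both for Folr1. Leaving out the libraries farthest from the median of Ttr, Cas9 replicate 1 and GCas9 replicate 1, r was 0.98 for Cldn2, 0.88 for Kl, 0.86 for Clic6, 0.85 for Foxj1, 0.84 for Otx2 and 0.75 for Enpp2. For Folr1 it was 0.26, so that relation rested on those 2 libraries. The libraries of the 3 groups are pooled here, and the WT libraries hold the lower end of Ttr.

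In the 12 libraries of set B, the relation to Ttr was kept by Kl and Cldn2 and rested on few libraries for the rest. Kl had r = 0.95 and rho = 0.82 (permutation p of 0.00049 and 0.0018, adjusted 0.00098 and 0.0041), and r = 0.77 without Cas9 replicates 1 and 2. Cldn2 had r = 0.91 and rho = 0.75 (adjusted permutation p of 0.00072 and 0.014), and 0.74 without them. Enpp2, Clic6 and Folr1 had r of 0.91, 0.87 and 0.80, which was 0.30, 0.32 and 0.10 without the 2 libraries. Otx2 (r = 0.45, rho = -0.23, adjusted permutation p of 0.16 and 0.51) and Foxj1 (r = -0.23, rho = -0.49, adjusted permutation p of 0.43 and 0.14) did not pass.

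**Figure D2:**
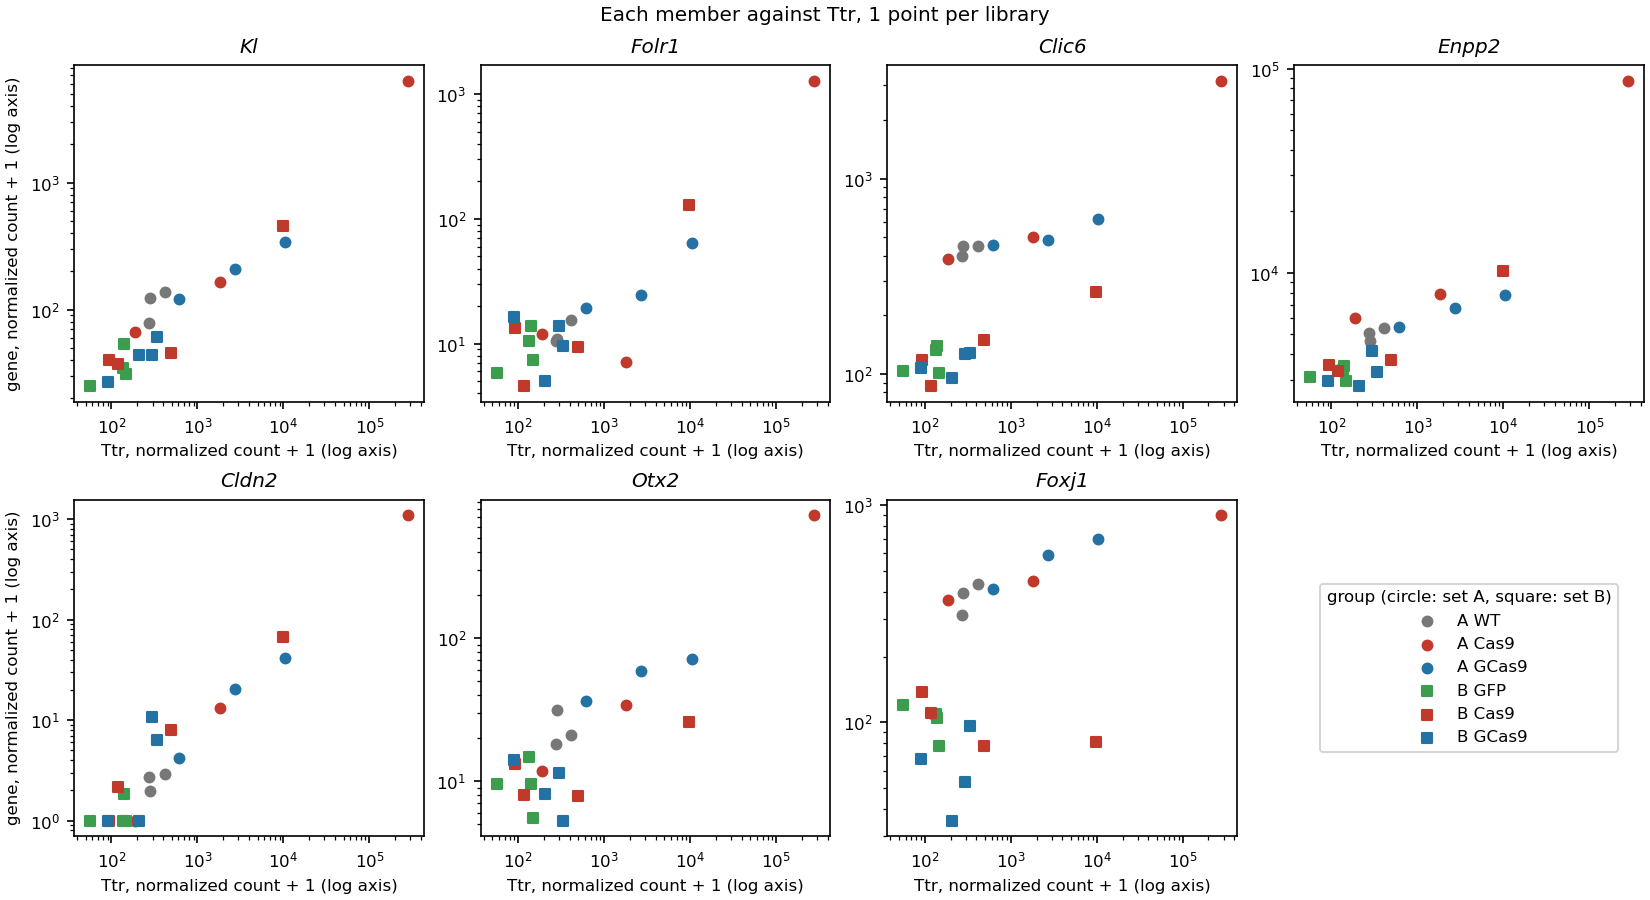
Normalized read count plus 1 of each of the other 7 genes against that of Ttr, both on log axes, 1 point per library, circles for set A and squares for set B. Kl and Cldn2 climb with Ttr in both sets, while the Foxj1 points of set B do not (r of -0.23).

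The amounts by which the members exceeded their control median can be set against the Ttr excess of the same library. The control medians come from other libraries, so these proportions still depend on the size factors, most where the excess is small beside the median. In Cas9 replicate 1 of set A, each 1000 counts of Ttr above the WT median came with 22.3 of Kl, 4.55 of Folr1, 3.92 of Cldn2 and 294 of Enpp2. GCas9 replicate 1 of the same set, with a Ttr excess of 10181 rather than 279896, gave 21.3, 5.24, 3.79 and 265. These 4 genes thus had nearly the same proportion to Ttr in these libraries, whose Ttr differed widely, but not in the other pair of set A with much Ttr. In Cas9 replicate 3, with a Ttr excess of 1536, the proportions were 27.5 for Kl, -2.49 for Folr1, 6.78 for Cldn2 and 1840 for Enpp2. In GCas9 replicate 3, with an excess of 2430, they were 35.6, 5.7, 7.2 and 687. Otx2 and Clic6 were at 2.53 and 9.75 in Cas9 replicate 1 and at 4.98 and 16.5 in GCas9 replicate 1, and Foxj1 at 1.83 and 30.4. Foxj1 was thus in excess in GCas9 replicate 1 far beyond its proportion in Cas9 replicate 1. The proportions in Cas9 replicate 1 of set B were 43.5 for Kl, 12.4 for Folr1, 6.92 for Cldn2, 726 for Enpp2, 15.1 for Clic6, 1.69 for Otx2 and -2.67 for Foxj1. These are proportions of single libraries, with no replicate behind them.

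The comparison of Cas9 with its control is not the same in the 2 sets. Set B sets Cas9 virus against GFP virus. Set A sets it against WT, for which no injection is stated, so injection, virus and nuclease cannot be told apart there. The same holds for GCas9 against WT. 0 of 8 members passed the limma test on log2(value + 1) in set A, which called 0.00628% of 15924 genes at an adjusted p under 0.05, and 0 of 8 were under 0.05 before adjustment, against 11.8% of genes. In set B 0 of 7 passed, against 0% of 15428 genes, and 0 of 7 were under 0.05 before adjustment, against 6.24%; Cldn2 had too low a mean to be tested there. All 8 members had a higher fitted mean with Cas9 in set A, with a median log2 difference of 1.79 against 0.00 over all genes, and 6 of 7 in set B, with a median of 0.52 against -0.01. Ttr differed by 3.85 ± 2.23 (SE) on the log2 scale in set A (limma adjusted p = 0.50) and by 2.10 ± 1.08 in set B (0.79). Another method, edgeR, gave larger differences for Ttr, of 8.20 and 4.45 (edgeR adjusted p of 0.4 and 0.8). Enpp2 differed by 1.68 ± 0.83 in set A (limma adjusted p = 0.45), with all 3 Cas9 libraries above all WT libraries, as for 10.7% of all genes in that direction (exact permutation p = 0.1, the smallest that 3 against 3 allow). Without Cas9 replicate 1 the Enpp2 difference was 0.46 ± 0.16 (limma adjusted p = 0.77). In set B it differed by 0.52 ± 0.27, and by 0.13 ± 0.12 without Cas9 replicate 1, with 3 of 4 Cas9 libraries above all GFP libraries (exact permutation p = 0.0857).

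The remaining differences between Cas9 and WT in set A were 3.28 ± 2.11 for Cldn2, 1.98 ± 1.66 for Folr1, 1.91 ± 1.39 for Kl, 1.53 ± 1.23 for Otx2, 0.97 ± 0.65 for Clic6 and 0.49 ± 0.32 for Foxj1. Without Cas9 replicate 1 that of Ttr was 0.89 ± 1.20, Clic6 was at 0.02 ± 0.15 and Foxj1 at 0.11 ± 0.23, and Kl, Folr1 and Otx2 changed sign to -0.07, -0.40 and -0.19. Cldn2 then had too low a mean to be tested. Of the 7 members tested without that library 1, Enpp2, was under 0.05 before adjustment, against 6.08% of genes, and with all libraries of only the WT and Cas9 groups in the fit 0 of 8 were, against 13.1%. In set B Kl differed by 1.11 ± 0.63, Clic6 by 0.27 ± 0.26 and Foxj1 by -0.04 ± 0.27. Without Cas9 replicate 1 of that set Ttr differed by 0.65 ± 0.57, Kl by 0.25 ± 0.30, Clic6 by -0.03 ± 0.19 and Foxj1 by 0.06 ± 0.30, and 0 of 5 members tested were under 0.05 before adjustment, against 8.79% of genes. The size of the fitted difference between Cas9 and control thus rested on Cas9 replicate 1 for all 7 members tested without it in set A, and for Ttr, Kl, Clic6 and Enpp2 in set B.

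GCas9 against its control gave another picture in set A, where higher values lay in replicates 1 and 3, and replicate 2 was nearer to WT. In the GCas9 libraries 6 of 8 members lay above all WT libraries (Ttr, Enpp2, Folr1, Clic6, Cldn2 and Otx2), each with an exact permutation p = 0.1, the smallest possible; this held for 9.16% of the 15924 genes tested. None of the 8 passed the limma test, which called 0.00628% of genes, and none was under 0.05 before adjustment, against 6.77% of genes. The spread in that fit is shared with the Cas9 group and so includes Cas9 replicate 1. Ttr differed by 3.03 ± 2.23 on the log2 scale (limma adjusted p = 0.79), Cldn2 by 2.60 ± 2.11, Folr1 by 1.38 ± 1.66 and Otx2 by 1.22 ± 1.23. Foxj1 differed by 0.56 ± 0.32 (0.75), with 2 of 3 GCas9 libraries above all WT libraries. With only the WT and GCas9 groups in the limma fit the differences were the same with smaller errors, and 6 of 8 members were under 0.05 before adjustment, against 7.66% of genes. There Ttr differed by 3.03 ± 0.90 and Otx2 by 1.22 ± 0.34, and the others under 0.05 were Enpp2, Cldn2, Folr1 and Foxj1. Without Cas9 replicate 1, 5 of 7 members were under 0.05 before adjustment (Ttr, Folr1, Enpp2, Otx2 and Foxj1), against 8.23% of genes, with Ttr at 3.03 ± 1.07. None passed adjustment in either fit, with limma adjusted p of 0.63 for all 8 members in the first and of 0.59 to 0.62 in the second. GCas9 replicate 2 was the lowest of the 3 GCas9 libraries for all 8 genes, and lay within the WT range for Kl and Foxj1. Its margin over the highest WT library was narrow for Clic6 (454 against 451), Enpp2 (5422 against 5381) and Cldn2 (3 reads against 2). It was 17 reads against 15 for Folr1, and in normalized counts 35.7 against 30.7 for Otx2 and 616 against 413 for Ttr. Since the 6 genes vary together, their counts are not 6 separate results.

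In set B GCas9 was close to GFP for the tested choroid plexus members other than Ttr. Ttr had a higher fitted mean and Foxj1 a lower one. The limma fit called 0% of 15428 genes and 0 of 7 members. Ttr differed by 0.89 ± 1.08, with 3 of 4 GCas9 libraries above all GFP libraries (exact permutation p = 0.2), and the other tested choroid plexus members by -0.05 to 0.29. Foxj1 differed by -0.78 ± 0.27 (limma p = 0.013, adjusted p = 0.73), with 3 of 4 libraries below all GFP libraries (exact permutation p = 0.0571, where 4 against 4 can reach 0.0286). Foxj1 was the 1 member of 7 under 0.05 before adjustment, as were 6.48% of all genes.

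GCas9 was also compared with Cas9 within each set, the comparison both sets share. The limma fit called 0% of genes and no member in either set; before adjustment 0 of 8 members in set A (5.45% of genes) and 1 of 7 in set B (3.84%) were under 0.05. In set A 7 of 8 members had a lower fitted mean with GCas9 (Ttr by -0.82 ± 2.23, Enpp2 by -1.29 ± 0.83), but without Cas9 replicate 1 the Ttr difference was 2.15. All 7 members tested in set B were lower, Ttr by -1.21 ± 1.08 (0.24 without Cas9 replicate 1). Foxj1 differed by -0.75 ± 0.27 (limma p = 0.017, adjusted p = 0.99, exact permutation p = 0.114), with 3 of 4 GCas9 libraries below all Cas9 libraries. For Foxj1 the difference between GCas9 and Cas9 was itself compared between the sets, over all 21 libraries: set B minus set A was -0.81 ± 0.45 (limma adjusted p = 0.99, with 0% of 16094 genes called). For Ttr it was -0.39 ± 2.47. Cas9 and its control libraries enter 2 comparisons each, so these are not independent of the ones above.

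A wider list of 36 genes of the choroid plexus, all found in the table, followed the members. In Cas9 replicate 1 of set A 36 of 36 were at their highest value of the set, 17 of them over 10 times the next library, against 18.2% of all genes being highest there. Set B was alike: 28 of 36 were highest in its Cas9 replicate 1, 6 of them over 10 times the next library, against 9.5%. Genes chosen after their values were seen illustrate this. Kcnj13, a potassium channel of the choroid plexus, was at 1154 in that library of set A and 0 to 39.3 in the others, and at 193 in set B against 2.73 to 12.9. Aqp1, the water channel of its apical membrane, was at 1248 against 5.92 to 59.4 in set A and at 81.3 against 0 to 3.81 in set B. Prlr, the prolactin receptor, was at 1900 against 6.90 to 45.1 and at 94.9 against 0 to 8.19.

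The list's genes with the largest means, which had high values in every library, stood out less. Slc12a2, a sodium, potassium and chloride cotransporter, was at 4823 in Cas9 replicate 1 of set A against 1787 to 2543 in the other libraries, and at 1287 against 678 to 1009 in set B. Slc4a10, a sodium bicarbonate transporter, was at 4382 against 2815 to 3544 in set A, and at 1068, within 803 to 1189, in set B. Car12, a carbonic anhydrase, was at 3551 against 1255 to 2096 in set A and within the range in set B, as was the protease gene Ctsl, at 2631 against 1425 to 2028 in set A.

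Across groups none of the list's genes passed the limma test in any comparison. Of 33 genes tested in set A, 32 were higher with Cas9 than in WT, with a median log2 difference of 1.67, which was 0.14 with 18 of 27 higher when Cas9 replicate 1 was left out. With GCas9 28 of 33 were higher than in WT, with a median of 0.49, and 26 of 33 and 0.17 without GCas9 replicate 1. In set B 18 of 23 were higher with Cas9 than with GFP (median 0.34), and 7 of 17 without Cas9 replicate 1 (-0.04). Between GCas9 and GFP 15 of 23 were higher, with a median of 0.09. The median over all genes tested was within 0.02 of 0 in every one of these fits.

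Library by library, other libraries of set A than Cas9 replicate 1 had many of the list's genes above WT, in both virus groups. In GCas9 replicate 1 28 of 36 list genes lay above all WT libraries, against 25.3% of all genes, and in GCas9 replicate 3 21 of 36, against 31.6%. Cas9 replicate 3 held 27 of 36, against 29%, and GCas9 replicate 2 and Cas9 replicate 2 held 12 and 10, against 25.1% and 23.7%. The order of these libraries by Ttr (10462, 2711, 1817, 616 and 188) was nearly their order by this count.

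**Figure D3:**
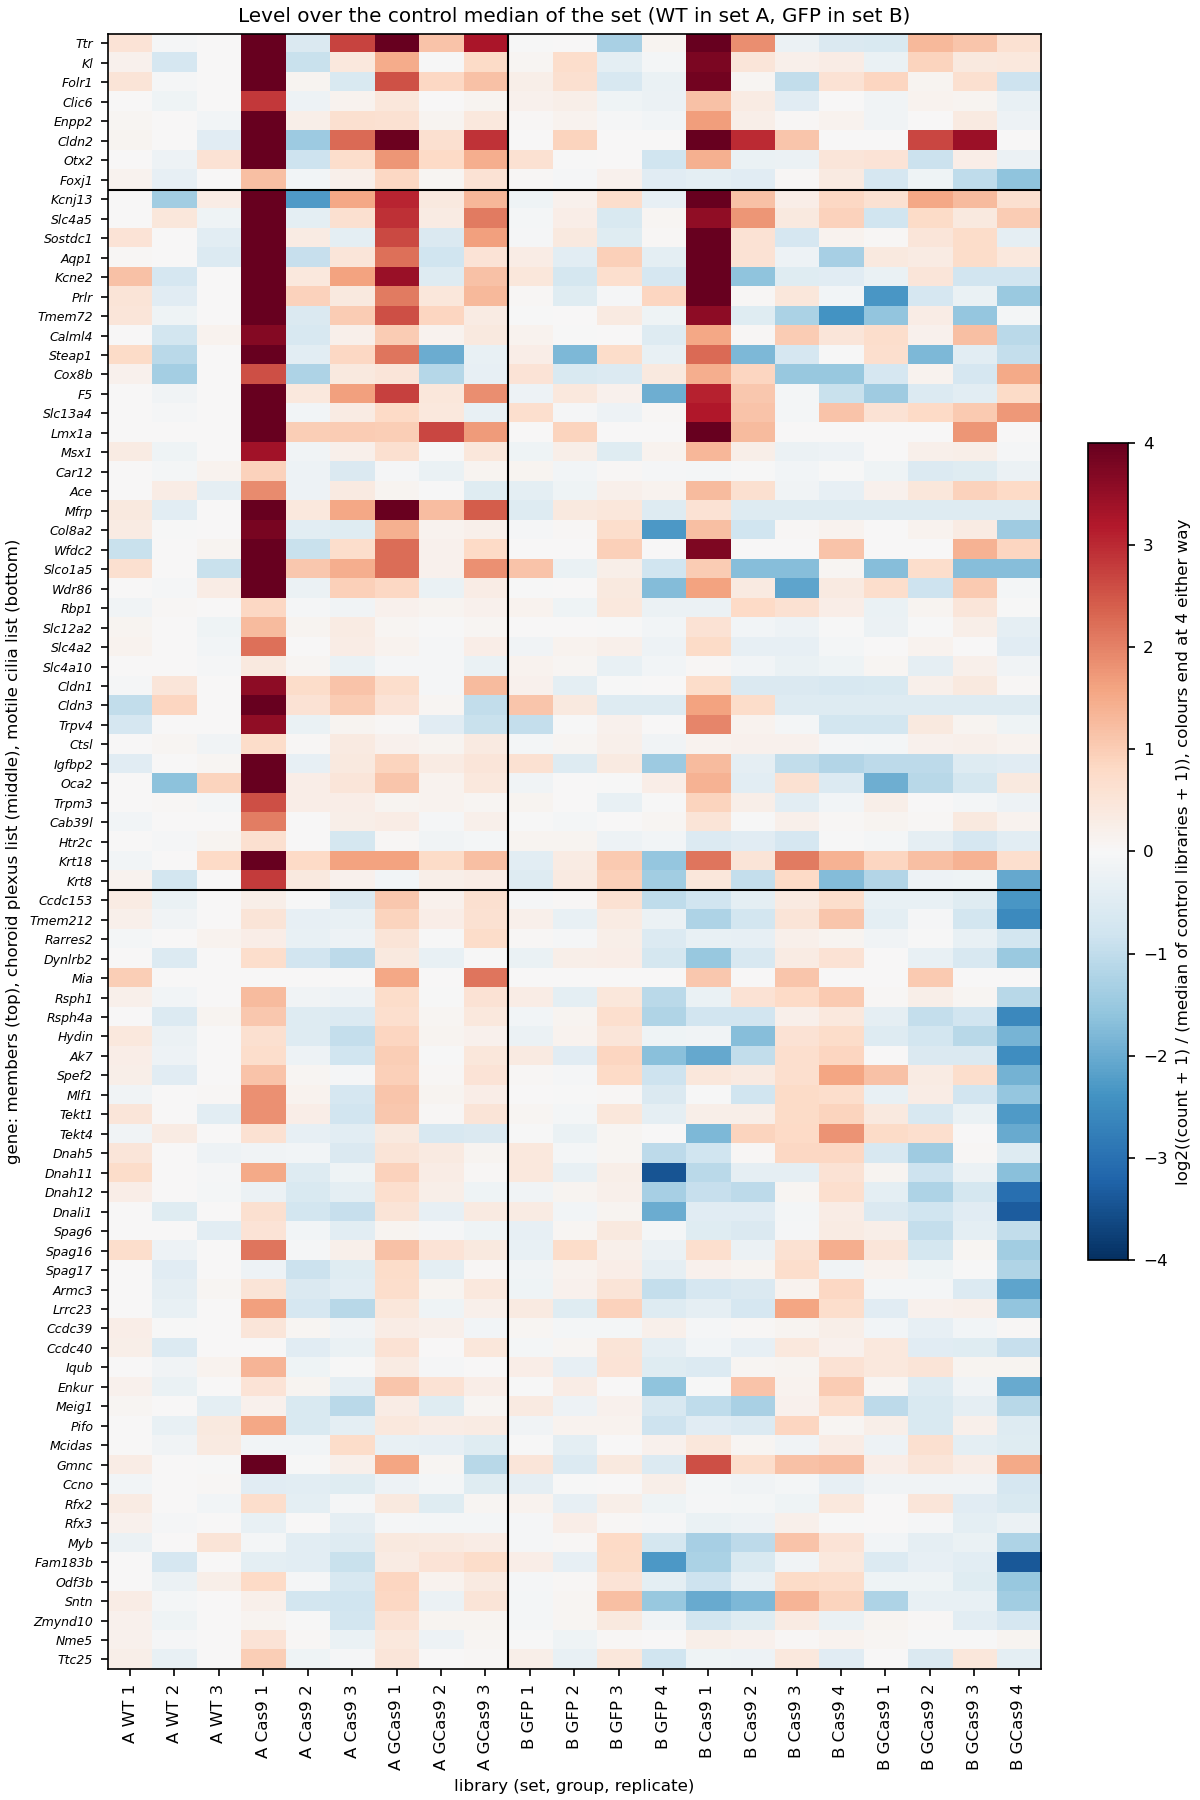
Each gene's log2 ratio of its normalized count plus 1 to the control median plus 1 (WT in set A, GFP in set B), as colour that ends at 4 either way, for the 8 genes (top), the 36 choroid plexus genes (middle) and 40 genes of motile cilia (bottom) in 21 libraries. The column of Cas9 replicate 1 is mostly red through the upper blocks in both sets, and through the lower block in set A only in part (27 of 40 genes above all WT libraries).

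Genes of motile cilia, the programme that Foxj1 controls, differed from the choroid plexus genes in the libraries where they were high. Of 44 such genes 40 were found in the table. In Cas9 replicate 1 of set A 27 of 40 lay above all WT libraries (34.3% of all genes did), and in GCas9 replicate 1, with far less Ttr, 36 of 40 did (25.3%). The median log2 ratio to WT was 0.55 and 0.57 in these libraries, whereas for the choroid plexus list it was 4.27 and 0.87. Cas9 replicate 3, with a Ttr of 1817, had 30 of 40 cilia genes below all WT libraries, against 23.2% of all genes. In Cas9 replicate 1 of set B 4 of 40 lay above and 12 of 40 below all GFP libraries, against 21.4% and 15.7%, while 29 of 36 choroid plexus genes lay above.

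Summed over the 40 genes, the cilia list was 6554, 5345 and 5803 in WT, 8194, 5243 and 4463 with Cas9 and 7775, 5853 and 6383 with GCas9 in set A. In set B it was 2148, 2150, 2618 and 1632 with GFP, 1693, 1800, 2641 and 2774 with Cas9 and 2097, 1889, 1734 and 1222 with GCas9. In set A the groups overlapped, and in set B GCas9 replicate 4 was the lowest library, as it was for Foxj1. In that library 30 of 40 cilia genes lay below all GFP libraries, against 19.1% of all genes, with a median log2 ratio of -1.31.

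**Figure D4:**
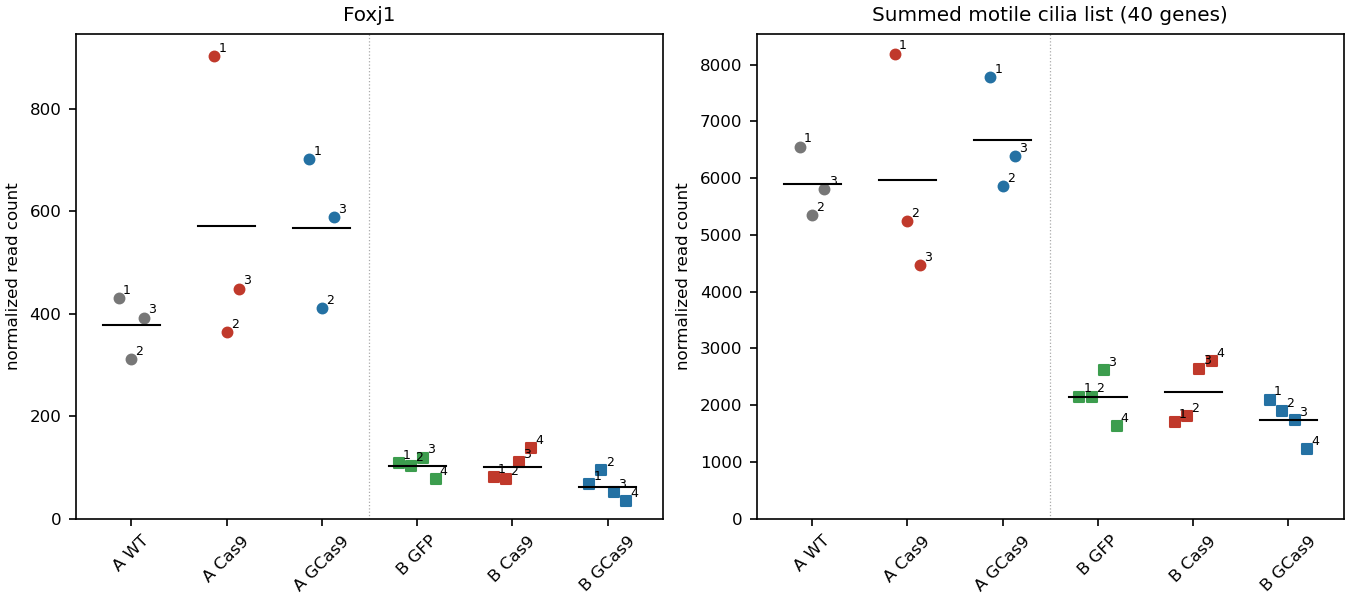
Normalized read count of Foxj1 (left) and the summed normalized count of 40 motile cilia genes (right) in each library, on linear axes from 0, with replicate numbers and a line at each group's mean, circles for set A and squares for set B. GCas9 replicate 4 is the lowest point of set B in both panels (34.2 and 1222), and Cas9 replicate 1 the highest of set A (904 and 8194).

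None of the cilia genes passed the limma test in any comparison. In set A 34 of 39 tested were higher with GCas9 than in WT, with a median log2 difference of 0.28, and 19 of 39 were higher with Cas9 (-0.06). Without Cas9 replicate 1 the latter was 2 of 38, with a median of -0.36, and GCas9 minus Cas9 went from 0.39 to 0.75. Without GCas9 replicate 1, 26 of 39 were higher with GCas9 than in WT, with a median of 0.11, and GCas9 minus Cas9 was 0.20. In set B the direction was the other way: 33 of 37 were lower with GCas9 than with GFP (median -0.48) and 35 of 37 lower than with Cas9 (-0.53). Without GCas9 replicate 4 these were 26 of 37 (-0.15) and 33 of 37 (-0.22). The difference between GCas9 and Cas9 was lower in set B than in set A for 35 of 39 genes, with a median of -0.88, and 0 of them passed. Rsph4a, a radial spoke protein of the axoneme, had 276 in Cas9 replicate 1 of set A against 87.9 to 207 in the others, but 36.1 within 9.56 to 99.1 in set B. Rfx3, a transcription factor of cilia genes that neurons also express and the cilia list gene with the largest mean, differed by -0.25 ± 0.09 between Cas9 and WT (limma adjusted p = 0.41). Ccdc39, which helps to assemble the axoneme, differed by 0.05 ± 0.16 there.

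In set B the 5 tested markers of cortical neurons had higher fitted means with GCas9 than with GFP, but none passed the limma test. Most cilia genes had a lower fitted mean with GCas9, as given above. A list of 8 genes of cortical neurons summed to 1340, 1489, 1168 and 1253 with GFP, 1492, 1336, 1524 and 1417 with Cas9 and 1804, 1613, 1794 and 2481 with GCas9, so that all GCas9 libraries were above all others and GCas9 replicate 4 was the highest. Its defining member Slc17a7, the vesicular glutamate transporter of cortical excitatory neurons, was at 21.9 to 74.4 with GFP and 68.2 to 804 with GCas9. In GCas9 libraries no gene of that list was at 0, while Emx1 was at 0 in Cas9 replicates 1 and 2, the latter also without Tbr1. A list of 11 genes of thalamus, hippocampus and septum overlapped between the groups. It summed to 871 to 1091 with GFP, 974 to 1202 with Cas9 and 934 to 1138 with GCas9. Of 14 genes of neuroblasts, the young neurons beneath the ependyma, 8 lay below all GFP libraries in GCas9 replicate 4, against 19.1% of all genes, and 11 in Cas9 replicate 1, against 15.7%. In set A the neuroblast list summed to 14113 to 15519 in WT, 12390 to 13643 with Cas9 and 14344 to 15043 with GCas9, and in set B to 3386 to 4026, 3268 to 3982 and 3326 to 3987, with none of its genes at 0 in any library. The part of these cells, or of the tissue taken, in the Foxj1 and cilia values was not tested.

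In Cas9 replicate 1 of both sets, markers of meningeal fibroblasts and oligodendrocytes were higher than in the controls too. In that library of set A, 10 of 12 genes of meningeal fibroblasts lay above all WT libraries, against 34.3% of all genes, with a summed value of 20698 against 5476 to 5582. Of this sum 10908 was Igf2, a growth factor gene that the choroid plexus also expresses, which was at 624 to 1412 in the other libraries. A further 6908 was Ptgds, which was at 2351 to 4164 in the other libraries, so most of the sum came from these genes. All 12 oligodendrocyte genes were above WT, with a sum of 389332 against 201244 to 242852 and a median log2 ratio of 0.81. All 10 genes of a list of immune cells were above WT as well, and 8 to 10 of them were in each of the other 5 libraries of virus-treated mice in set A, against 23.7% to 31.6% of all genes. The other libraries of set A with much Ttr differed among themselves. Cas9 replicate 3 was above WT for both lists, with a meningeal sum of 7176 and an oligodendrocyte sum of 319349. GCas9 replicate 1, with Ttr at 10462, had a meningeal sum of 6136, above WT, and an oligodendrocyte sum of 211543, within WT. GCas9 replicate 3 had 4794, below all WT libraries, and 224223, within WT. For Cas9 replicate 1 of set B, 8 of 12 meningeal and 12 of 12 oligodendrocyte genes lay above all GFP libraries, with sums of 3537 and 151510, and 0 of 10 immune genes did, against 21.4% of all genes. All other libraries ran from 4794 to 7176 for the meningeal sum and from 201244 to 319349 for the oligodendrocyte sum in set A, and from 2174 to 4562 and from 108174 to 145498 in set B. None of the meningeal and oligodendrocyte genes was at 0 in any library, and their part in the result was not tested.

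The genes that act with the members, their receptors, partner carriers and junction proteins, were not called in any comparison. Of 28 such genes 26 were found in the table. Of 25 tested in set A, 19 were higher with Cas9 than in WT, with a median log2 difference of 0.14, and 16 with GCas9 (0.04), and in set B 17 of 21 were higher with Cas9 than with GFP (0.05) and 9 of 21 with GCas9 (-0.02). Lpar1, a lysophosphatidic acid receptor, was at 865 to 962 in WT and 1020 to 1671 with Cas9, and differed by 0.53 ± 0.15 (limma adjusted p = 0.41). Its groups did not overlap, as for 10.7% of all genes in that direction. Thra, the thyroid hormone receptor gene with the largest mean of the list, was at 14953 to 16417 in WT and 12459 to 14595 with Cas9, and differed by -0.24 ± 0.08 (0.41). Slco1c1, a carrier of thyroid hormone into the brain, was at 3306 in Cas9 replicate 1 of set A and 1578 to 2013 in the others. The receptor gene Fgfr2 was at 2761 there, against 1358 to 1699. Tjp1 and Fgfr3, with larger means in set A than Slco1c1 and Fgfr2, differed by 0.14 ± 0.07 and 0.03 ± 0.08 between Cas9 and WT.

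Among 11653 genes with a mean of at least 50 in both sets, the 10 whose library profile was most like that of Ttr were Msx1, Igf2, Slc31a1, Car14, Prps2, Trpm3, Slc29a4, Atp10d, Macrod1 and Mtmr10. They were ranked by the smaller of the Pearson r of the 9 libraries of set A and of the 12 of set B, as a description. Msx1, a homeobox gene, had r of 0.93 and 0.94, and its value in Cas9 replicate 1 was 604 in set A and 125 in set B, against medians of 63.1 and 49.9 in the other libraries. Igf2 had r of 0.89 and 0.91, with 10908 and 212 against 807 and 88.9. Msx1 and Trpm3, a cation channel gene, are in the choroid plexus list, and Igf2 is in the meningeal list. Among the 10 genes most like Foxj1 were Rsph4a, Dnaic2, Myo1e, Prdx4, Thbs4, Traf4, Naaa, Aebp1 and Pck2. Rsph4a had r of 0.90 and 0.87, and Dnaic2, an arm protein of ciliary dynein, 0.96 and 0.83. The libraries of each set share their scaling, and the highest libraries weigh most in each r.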

How the data were processed

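RNA from mouse striatum was sequenced in 21 libraries. Per the labels' protocols, cDNA was made with a SMARTer kit, which amplifies it, and libraries with Nextera XT. Tools named in the submitters' processing notes are HTSeq, STAR 2.5.2b, DESeq2, SAMtools and R 3.3.3, and the build is GRCm38.p3, with no parameters. The deposited signal per gene is a read count that the authors divided by a size factor per library. Whole reads were recovered for 100% of values within 0.001 reads; 13121 of 41128 genes had no read. Size factors were 0.8842 to 1.16 (set A) and 0.7194 to 1.303 (set B), and normalized totals 23 to 24.18 M and 8.206 to 8.688 M (mega), so the sets, told apart by title numbering, were scaled apart. Intervals and floors cover counting error only.

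Each set was fitted with its 3 groups by limma 3.58.1 in R 4.3.3 on log2(normalized count + 1), with a moderated variance and mean trend, for genes with a mean of at least 10 (all 8 members in set A, 7 in set B), with Benjamini-Hochberg adjustment over all genes and a threshold of 0.05. The fit was tested on simulated data. Groups come from the labels; means are by library, and the exact permutation tests are two-sided. Alternatives were pseudocounts of 0.5 and 10, no filter, quantile normalization, edgeR 4.0.16 and DESeq2 1.42.0 on recovered reads, the replicate block, only the 2 groups compared, and leaving out each library. The members and the lists were chosen with earlier results of these data known. Named genes are the 8 members, up to 4 genes of largest mean of each of the choroid plexus, cilia and partner lists, up to 2 of each other list, and the 10 most like Ttr and Foxj1; others are said to be chosen after their values were seen. Not every gene that the rule or the lists give is reported here. Gene positions are from GENCODE M21 on GRCm38.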

Additional observations from a re-analysis of the deposited data

Results flagged for a closer look

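In groups of 4 libraries, the highest or lowest library was set against the others by Dixon's test, which takes the gap to the nearest library over the range of the group. Of 24 such tests of the 8 genes in the 3 groups of set B 7 passed. The test's rate of 1 in 20 is for normal values. These counts are skewed and some are tied at 0, so that rate cannot be set against the 7. Groups of 3 were not tested, so set A has none. 5 of the 7 lay in Cas9 replicate 1: Ttr at 9771 (gap over range 0.958), Kl at 451 (0.981), Folr1 at 128 (0.930), Enpp2 at 10209 (0.938) and Cldn2 at 66.6 (0.896). The 5 values come from the same library and genes that vary together, so they are not separate findings. In the GFP group, Ttr was low in replicate 3, at 55.3 (0.871), and Cldn2 was above 0 in replicate 2 alone, at 0.855 (1.000), which is 1 read. With all other libraries of the group at 0, that ratio is 1.000 whatever the level.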

How the results depend on the processing

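No member passed the threshold in the limma fit or under any alternative that gave an adjusted p: of 893 values from alternatives over 53 member results, 854 kept their direction and 39 reversed it. DESeq2 gave no adjusted p for any member but Foxj1 in set A, and none for Ttr, Kl and Folr1 in set B. Depth limits Folr1, Cldn2 and Otx2 in set B, where most libraries hold under 20 reads, and 3 or 4 libraries a group limit every test.

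The values that reversed are given here; the cause was not tested. For GCas9 minus Cas9, set B minus set A, a pseudocount of 10 gave 0.29 for Folr1, 0.65 for Cldn2 and 0.23 for Otx2, and quantile normalization gave 0.10 for Folr1 and 0.12 for Otx2. For GCas9 minus GFP in set B, quantile normalization gave -0.02 for Enpp2 and 0.01 for Otx2, edgeR 0.02 and DESeq2 0.01 for Otx2. For Foxj1, GCas9 minus Cas9 in set A, edgeR gave -0.02 and DESeq2 -0.01.

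The ranges are lowest to highest. In set A leaving out Cas9 replicate 1 gave the reversed values of Ttr, Kl, Folr1, Clic6 and Otx2. Cldn2 had too low a mean to be tested without that library, so its range covers 8 of the 9 libraries. In set B the ranges cover 11 of 12 libraries for Folr1 and 8 of 12 for Otx2. Leaving out each library in turn where the gene could then be tested, Cas9 minus WT in set A ran from -0.07 to 3.23 for Kl, -0.40 to 3.35 for Folr1 and -0.19 to 2.78 for Otx2. GCas9 minus Cas9 in set A ran from -3.12 to 2.15 for Ttr, -2.32 to 0.97 for Kl, -1.98 to 1.78 for Folr1, -1.29 to 0.23 for Clic6, -1.56 to 1.41 for Otx2, -0.20 to 0.45 for Foxj1 and -2.98 to 0.25 for Cldn2. In set B, GCas9 minus GFP ran from -0.12 to 0.03 for Clic6, -0.10 to 0.09 for Enpp2, -0.02 to 0.55 for Folr1 and -0.27 to 0.24 for Otx2. Cas9 minus GFP ran from -0.20 to 0.08 for Foxj1 and -0.03 to 0.51 for Clic6. GCas9 minus Cas9 ran from -2.0 to 0.24 for Ttr and -1.15 to 0.04 for Kl.

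Counts of called genes over the whole table were 1 for Cas9 minus WT and 1 for GCas9 minus WT in set A, and 0 in every other comparison. For Cas9 minus WT, DESeq2 called 116, only the 2 groups 6, edgeR 0, a pseudocount of 10 called 0, and leaving out libraries 0 to 7. For GCas9 minus WT, DESeq2 called 218, and leaving out libraries gave 0 to 2. For GCas9 minus Cas9 in set A, DESeq2 called 5, and leaving out libraries gave 0 to 1. For GCas9 minus GFP, DESeq2 called 41, only the 2 groups 7, and leaving out libraries gave 0 to 9. For Cas9 minus GFP, DESeq2 called 10, and leaving out libraries gave 0 to 2. For the difference between the sets, no filter gave 1.

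With the replicate block, counts were 2 for Cas9 minus WT, 2 for GCas9 minus WT, 5 for GCas9 minus GFP and 0 elsewhere, and no member was called. The numbers were not taken to pair libraries: the correlation of same-numbered libraries' deviations was over 0.1 in 6 of 9 pairs of set A (-0.02 to 0.64) and 7 of 12 of set B (-0.13 to 0.46), and 7 of 9 and 8 of 12 libraries correlated best with their own number.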

Other observations

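Some genes of the wider lists did not follow the rest, and they were chosen after their values were seen. Mfrp, a membrane frizzled-related protein gene of the choroid plexus list, had 7, 4 and 5 reads in WT, 1658, 7 and 16 with Cas9 and 95, 12 and 27 with GCas9 in set A, in the same order as Ttr among the virus-treated libraries. In set B it had 0 or 1 read in each of the 12 libraries, with 1 in Cas9 replicate 1, where Ttr was at 9771. C1qtnf5, whose gene model lies within that of Mfrp, had 0 reads in all 21 libraries. The models overlap, the counting of shared reads is not given in the sources used here, and the values of both genes are uncertain.

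Gmnc, the geminin family gene that starts the programme of multiciliated cells, was, beside Nme5, the cilia list gene with its highest value in Cas9 replicate 1 of both sets. It was at 214 in Cas9 replicate 1 of set A against 2.26 to 20.1 in the other libraries, and at 7.90 in Cas9 replicate 1 of set B against 0 to 3.19. Mcidas, the related gene that acts with it, was at 17.7 within 13.6 to 32.4 and at 23.7 within 11.9 to 26.9. Foxj1, further along the same programme, was at 80.2 in that library of set B, within the range of the others.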
